A study of Mus musculus with 6 samples.

Results

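The circular RNAs (circRNAs) of Hipk3, Pvt1, Lrch3 and Rasa2 were followed while cultured mouse preadipocytes were differentiated toward brown adipocytes. The members are all listed circRNAs that lie wholly inside a window set around each host gene in the mm9 genome, on the host's strand. The windows measured 80 kb on chromosome 2 (Hipk3, minus strand), 230 kb on chromosome 15 (Pvt1, plus), 110 kb on chromosome 16 (Lrch3, plus) and 105 kb on chromosome 9 (Rasa2, minus). They number 19 of the 3869 circRNAs in the deposited table, with 1 from Hipk3, 9 from Pvt1, 5 from Lrch3 and 4 from Rasa2. No listed circRNA crossed a window's edge or lay in it on the other strand. The 4 hosts were chosen by the CPM values of these libraries, because their leading circRNA was abundant and thought to be steady over the days. The level and the steadiness of these 4 dominant circRNAs, meaning the row of each window with the highest mean, are therefore given as descriptions with no test. The other 15 circRNAs of the windows are called minor here.

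CircRNAs arise when the spliceosome joins the donor site at the end of an exon back to the acceptor site at the start of the same or an earlier exon. The product is a closed ring without ends, which exonucleases attack poorly, and only reads across the back-splice junction tell it from the linear RNA of the same gene. Hipk3 encodes a homeodomain-interacting protein kinase, and its circRNA is among the best known abundant ones of mammals. Pvt1 is a long non-coding RNA gene next to Myc. Lrch3 encodes a protein with leucine-rich repeats and a calponin homology domain, and Rasa2 encodes a GTPase-activating protein that switches off Ras. Brown adipocytes burn lipid to make heat.

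The cells were stromal vascular cells of 6-week-old C57BL/6 mice, from a depot the labels call inguinal BAT. All groups came from such cultures, carried no stated allele or transgene, and had RNA depleted of ribosomal and linear RNA. The day 0 group was taken before induction. The day 4 group had had 4 days of insulin, dexamethasone and isobutylmethylxanthine, and the day 8 group a further 4 days of insulin and the thyroid hormone T3. Each day had 2 libraries. Whether the 2 were grown or taken from animals separately is not stated, so the spread between them may be technical, and p-values measure only that spread. The brown label was not checked against marker genes, because the table holds circRNAs without gene names. In such bulk samples, fewer cells of a type and less RNA per cell cannot be told apart.

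Levels are CPM, the back-splice reads of a circRNA scaled to the same total over the listed circRNAs of each library. Within a library every value was a whole multiple of 1 step, and a step was taken as 1 read, worth 21.9 to 24.8 CPM. On this reading the libraries held 40384 to 45733 reads. The smallest non-zero value was 2 steps, so a circRNA listed at 0 may have had 1 read. Each row of the table was non-zero in both libraries of 1 or more days, a selection found from the values. Of the 15 minor circRNAs, 6 met it through 1 day only, 4 through 2 days and 5 through all 3 days. For those 6, and for the 4 that met it through 2 days, a difference between days is in part built in.

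The positions of the joined ends are shown first, since both ends together tell the circRNAs of a host apart. The table gives no exons, so each genomic span was compared with the distance between every acceptor and later donor of the named host in GENCODE M21, a GRCm38 annotation. Only the length was compared and no coordinate was carried between builds. Of the 19 spans, 16 equalled such a distance. Among the 3850 other circRNAs, 3.48% had a span found in any of the 4 hosts. That share is an average over all lengths, and among the members short spans fitted more genes. The Hipk3 span of 1099 bases fitted 19 genes of its chromosome and strand, the host included. The dominant Pvt1 span of 318 bases fitted 13 likewise. The 3 spans without a match were all minor Pvt1 circRNAs. All 4 dominant circRNAs and 7 of the 12 matched minor ones began at exon 2 of the matched transcript. An exon 2 start was not particular to these hosts: among 253 other loci whose spans jointly matched 1 gene, the dominant circRNA began at exon 2 in 51.4%. For those loci, unlike the 4 hosts, an exon 2 start in any matching transcript was counted. At least 3 spans had to match the gene, which Hipk3 with 1 circRNA could not meet.

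The back-splice junctions of the dominant circRNAs and of the 6 minor ones that the results turn on follow, as 25 bases of the donor exon's end in lower case and the first 25 bases of the acceptor exon in capitals. They were assembled from the GENCODE M21 transcripts at the length-matched exons, not read from the libraries, and are written 5′ to 3′ on the host's strand.
Hipk3 exon 2, mmu_circ_0001052: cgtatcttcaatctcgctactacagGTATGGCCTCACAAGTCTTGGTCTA
Pvt1 exon 2, mmu_circ_0000604: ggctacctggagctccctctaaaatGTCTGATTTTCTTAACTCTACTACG
Pvt1 exons 2 to 3 of Pvt1-208: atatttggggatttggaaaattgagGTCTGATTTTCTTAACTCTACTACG
Pvt1 exons 2 to 3 of Pvt1-201: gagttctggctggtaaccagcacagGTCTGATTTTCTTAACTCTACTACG
Lrch3 exons 2 to 6, mmu_circ_0000681: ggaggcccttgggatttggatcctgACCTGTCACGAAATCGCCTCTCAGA
Lrch3 exons 2 to 5, mmu_circ_0006201: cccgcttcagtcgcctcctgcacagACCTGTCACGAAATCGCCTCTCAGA
Lrch3 exons 4 to 6: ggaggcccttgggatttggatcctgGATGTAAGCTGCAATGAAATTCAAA
Rasa2 exons 2 to 5, mmu_circ_0001829: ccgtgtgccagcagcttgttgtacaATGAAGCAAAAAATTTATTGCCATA
Rasa2 exons 2 to 4, mmu_circ_0001830: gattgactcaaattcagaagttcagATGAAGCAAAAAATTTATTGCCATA
Rasa2 exons 2 to 6, mmu_circ_0001828: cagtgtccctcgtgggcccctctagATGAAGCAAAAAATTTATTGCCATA

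Within a host the capitals repeat wherever minor and dominant circRNAs use the same acceptor, and only the lower-case donor side tells them apart. The 3 Rasa2 junctions printed share their capitals in this way, and so do the 3 of Pvt1. By their deposited coordinates, 7 of the 15 minor circRNAs had exactly the dominant circRNA's acceptor end, 3 had its donor end alone, and 5 had neither. The Lrch3 circRNA of exons 4 to 6 is the reverse case, with the lower-case side of the dominant circRNA and other capitals. The host's start codon lies in exon 2 of Hipk3-201, inside the circle, and in exon 1 of Lrch3-201 and Rasa2-201, outside it.

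**Figure D1:**
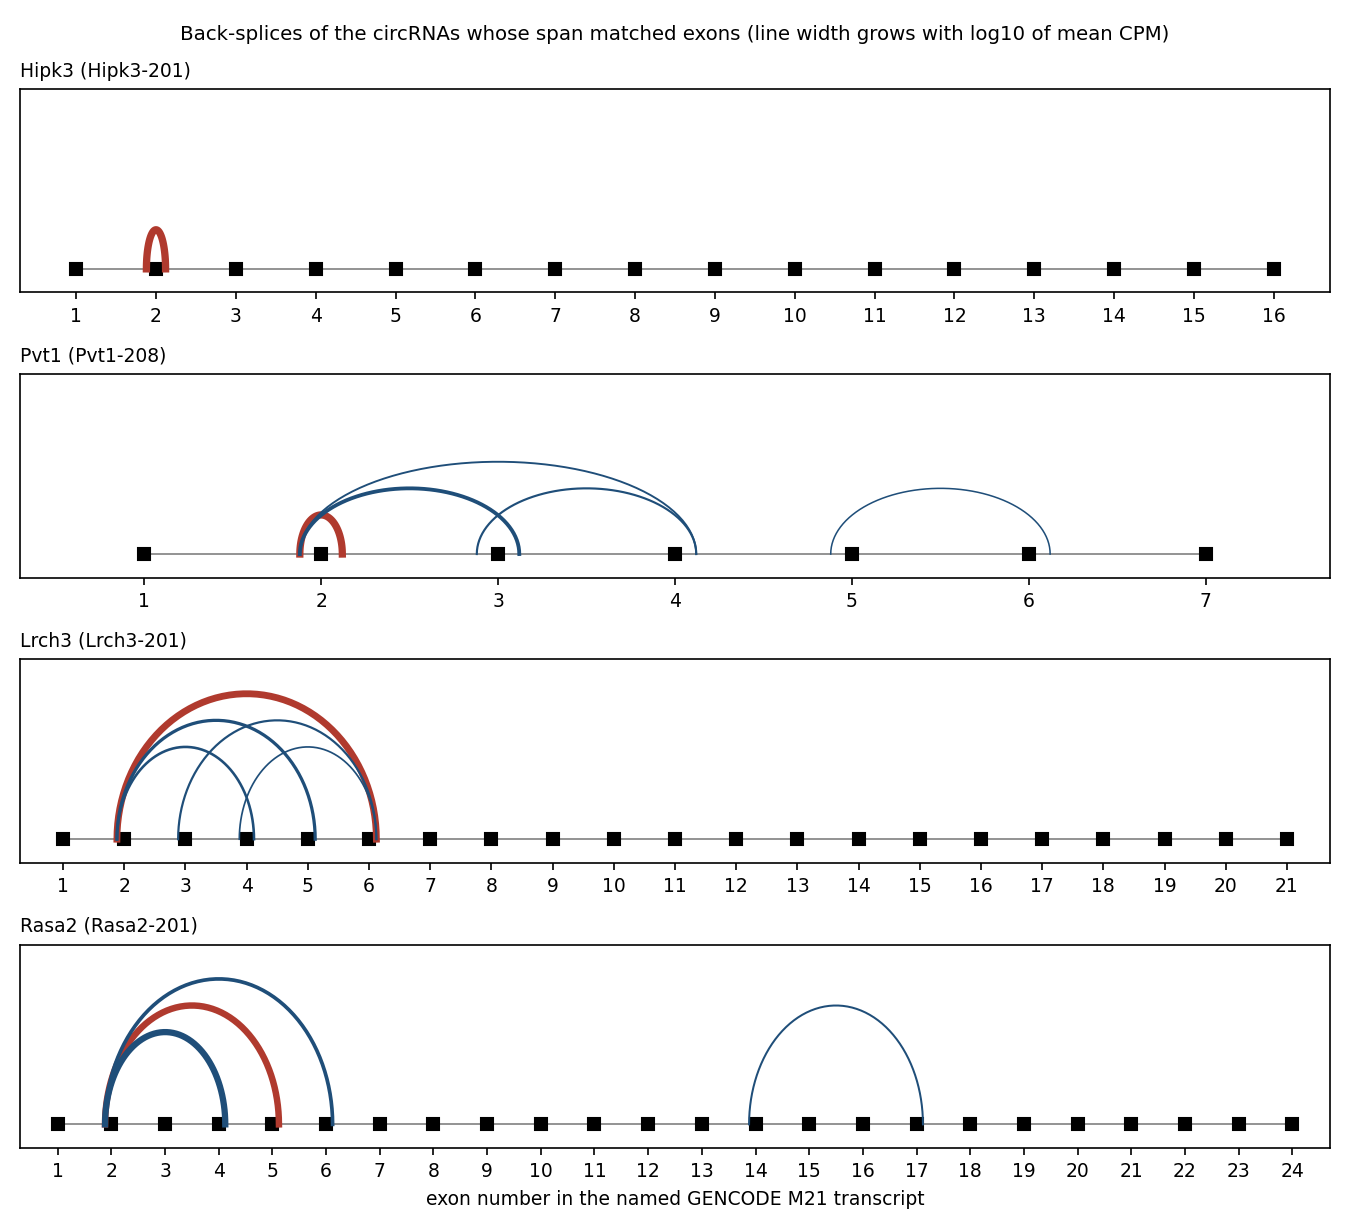
Back-splices drawn on the exons of 1 transcript per host, with exon number on the horizontal axis; each arc joins the acceptor and donor exon of 1 circRNA, red for the dominant and blue for minor ones, and wider arcs have higher mean CPM. All 4 red arcs start at exon 2; 15 of the 16 matched circRNAs are drawn, since the one matched to Pvt1-201 has no place on Pvt1-208.

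By length, the dominant circRNAs of Hipk3 and Pvt1 matched single exons, of 1099 and 318 bases. Those of Lrch3 and Rasa2 ran over 5 and 4 exons, which would give 625 and 394 bases if every annotated exon between the ends were kept. The exon content inside a circle was not measured. The introns on either side were long. They measured 22100 bp upstream and 24113 bp downstream in Hipk3, and 68946 and 68001 bp in Pvt1. In Lrch3 they were 35888 and 12135 bp, and in Rasa2 19864 and 9123 bp. The dominant circRNAs of the 253 other loci had medians of 16506 bp upstream, 13084.5 bp downstream and 3 exons. The downstream introns of Lrch3 and Rasa2 were thus below that median.

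The Hipk3 circRNA, mmu_circ_0001052 (chr2:104310906-104312004), was the most abundant of the whole table by its mean. It stood at 12854 and 12785 CPM at day 0, 16640 and 13768 CPM at day 4, then 11024 and 12389 CPM at day 8. Both day 4 libraries lay above the other 4, and both day 8 libraries lay below the rest. The day means were 12820 ± 49.2, 15204 ± 2031 and 11707 ± 965 CPM (SD, n = 2), a ratio of 1.30 between the highest and the lowest. The lower position of day 8 against day 0 depended on the scaling. After scaling by trimmed means of log ratios (TMM) the day 0 libraries ran from 12046 to 12675 CPM and the day 8 libraries from 11347 to 12809 CPM, and they overlapped. Hipk3 was the only one of the 4 hosts with a single listed circRNA.

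The Pvt1 circRNA, mmu_circ_0000604 (chr15:61938703-61939020), ranked second. Its libraries held 14084 and 12712 CPM at day 0, 13666 and 15674 CPM at day 4, then 9775 and 10328 CPM at day 8. Days 0 and 4 overlapped in these CPM, and both day 8 libraries lay below all 4 earlier ones. In inferred reads it had 607, 525, 625 and 633 before day 8, and 399 and 436 at day 8. The day means were 13398 ± 970, 14670 ± 1420 and 10052 ± 391 CPM (SD, n = 2). The ratio of the highest to the lowest day mean was 1.46, the widest of the 4 dominant circRNAs. With TMM scaling the day 8 libraries, at 10061 and 10678 CPM, were still below the lowest earlier library at 12603 CPM. The same scaling parted days 0 and 4, with day 4 at 14207 to 15249 CPM above day 0 at 12603 to 13199 CPM. The label of a steady circRNA thus fitted Pvt1 least.

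The Lrch3 circRNA, mmu_circ_0000681 (chr16:32950378-32961830), ranked 7th. It was at 7216 and 7264 CPM at day 0, 9096 and 7206 CPM at day 4, then 8868 and 9286 CPM at day 8. The day 4 libraries lay on either side, one near day 0 and one near day 8, while day 8 lay above day 0 in both libraries. The day means were 7240 ± 33.9, 8151 ± 1337 and 9077 ± 295 CPM (SD, n = 2), with a ratio of 1.25.

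Rasa2 had 2 abundant circRNAs, both starting at exon 2. The dominant one by mean, mmu_circ_0001829 (chr9:96492369-96511918, exons 2 to 5), ranked 10th with 5081 and 5424 CPM at day 0, 5707 and 6636 CPM at day 4, then 5635 and 5401 CPM at day 8. Its day means were 5253 ± 242, 6172 ± 657 and 5518 ± 165 CPM (SD, n = 2), and their ratio of 1.17 was the smallest of the 4. The second, mmu_circ_0001830 (chr9:96503132-96511918, exons 2 to 4), ranked 17th with 5290 and 5448 CPM at day 0, 4701 and 3838 CPM at day 4, then 4630 and 4501 CPM at day 8. Both of its day 0 libraries lay above the 4 later ones. It is the shorter of the pair by exon 5, with a length of 317 bases if all exons between its ends were kept.

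Among the 50 most abundant circRNAs, the range from the lowest to the highest of the 6 libraries, on log2(CPM + 43.7), had a median of 0.92. By this range over single libraries, Lrch3 ranked 4th smallest at 0.36, Rasa2 5th at 0.38, the second Rasa2 circRNA 8th at 0.50, Hipk3 10th at 0.59 and Pvt1 15th at 0.68. These ranks follow from the way the hosts were picked and support nothing. In 1 library the dominant circRNAs rested on 219 to 761 inferred reads. At their mean number of reads, counting error alone came to 4.22% for Hipk3, 4.31% for Pvt1, 5.38% for Lrch3 and 6.48% for Rasa2. Counting intervals cover counting error only, since the reads carry no stated molecular identifiers.

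Neighbours in the order of levels could not always be told apart. At day 0 the libraries of Hipk3 and Pvt1 overlapped, and they overlapped again at day 4. At day 8 both Hipk3 libraries were above both Pvt1 libraries. The Rasa2 pair overlapped at day 0 and separated at days 4 and 8, with mmu_circ_0001829 above mmu_circ_0001830. Lrch3 lay between these pairs on every day and overlapped with neither.

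**Figure D2:**
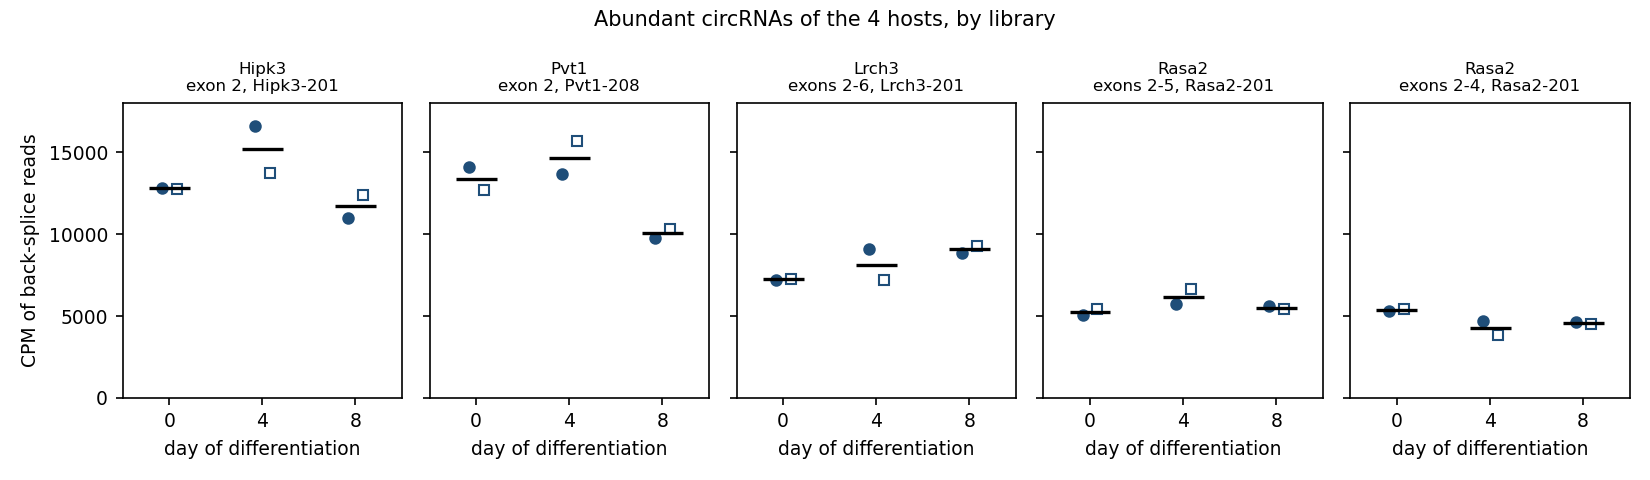
CPM of back-splice reads by day of differentiation for the 4 dominant circRNAs and the second Rasa2 circRNA; filled circles are replicate 1, open squares replicate 2, and bars the day mean. Both day 8 libraries of Pvt1, at 9775 and 10328 CPM, sit below its 4 earlier libraries.

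In these libraries the ratio of the 2 Rasa2 circRNAs varied by day more than their sum did. The ratio of mmu_circ_0001829 to mmu_circ_0001830 was 0.961 and 0.996 at day 0, 1.21 and 1.73 at day 4, and 1.22 and 1.20 at day 8. All 4 later libraries lay above both day 0 libraries, and the 2 day 4 libraries differed widely. The day means were 0.978 ± 0.0248, 1.47 ± 0.364 and 1.21 ± 0.0120 (SD, n = 2). The sum of the pair was 10622 ± 354, 10441 ± 46.8 and 10083 ± 257 CPM. In the fit described next, mmu_circ_0001830 relative to the dominant circRNA changed by -0.56 on the log2 scale at day 4 (SE 0.75, limma adjusted p = 0.721) and by -0.30 at day 8 (adjusted p = 0.922), both against day 0. A second fit, chosen after the data were seen, took the variance trend from the minor circRNA's own level. It gave the same -0.56 with an SE of 0.24 and a limma adjusted p of 0.296. The difference in balance therefore did not pass the test in either fit. How often the ratio of other pairs parts the days in this way was not counted.

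In the other 2 hosts with minor circRNAs the dominant one held most of the host's CPM on every day. For Pvt1 it held 92.7 ± 0.588%, 90.3 ± 2.09% and 92.4 ± 1.73% at days 0, 4 and 8 (SD, n = 2). For Lrch3 it held 95.8 ± 1.38%, 94.9 ± 3.45% and 93.8 ± 1.66%. For Rasa2 the shares were 47.8 ± 0.764%, 57.0 ± 6.51% and 52.1 ± 1.08%. The Lrch3 days overlapped, both day 4 libraries of Pvt1 lay below day 0, and both later days of Rasa2 lay above day 0. An exact permutation test of 2 libraries against 2 cannot go below p = 0.333, so these shares carry no test. Over the table, 710 loci held more than 1 circRNA, with a median dominant share of 65.4%. A share at or above that of Lrch3 occurred in 3.24% of these loci, at or above that of Pvt1 in 7.18%, and at or above that of Rasa2 in 77.6%. The hosts were picked for an abundant leading circRNA, so a high share is in part built in and these percentages support nothing. The hosts also counted as whole windows, while the other loci were groups of overlapping circRNAs.

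**Figure D3:**
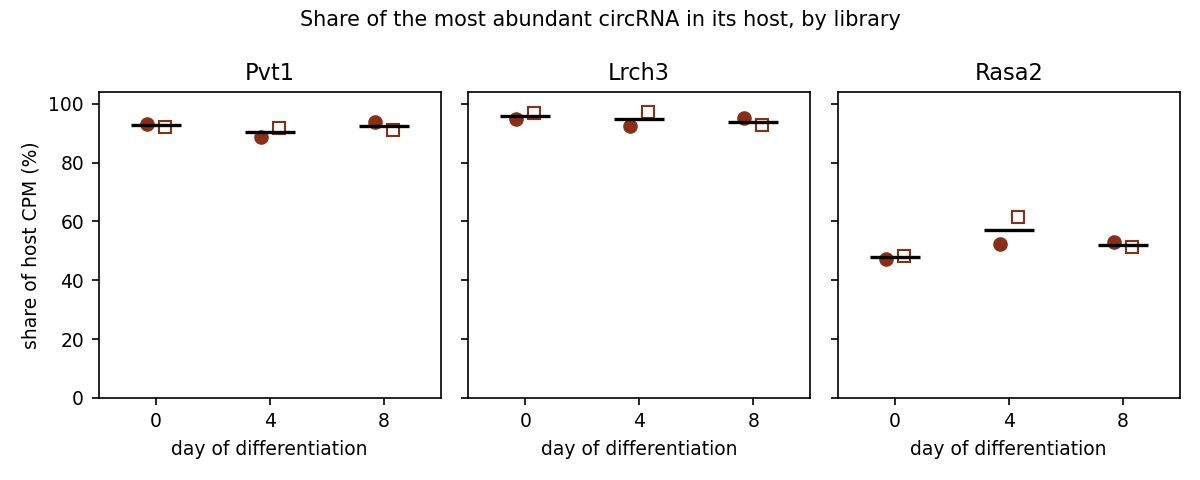
Share of the dominant circRNA in the summed CPM of its host, in percent, by day of differentiation; filled circles are replicate 1, open squares replicate 2, and bars the day mean. Pvt1 and Lrch3 stay above the Rasa2 values in every library, and the Rasa2 mean is 47.8% at day 0 and 57.0% at day 4.

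Differences between days were tested for the minor circRNAs on log2(TMM-scaled CPM + 43.7), with limma fitted to all 3869 circRNAs and p-values adjusted over all of them. A circRNA was called at an adjusted p under 0.05. Of the whole table, 8.22% was called at day 4 against day 0, with 3.98% higher and 4.24% lower. At day 8 against day 0 it was 12.4%, with 7.5% higher and 4.88% lower, and at day 8 against day 4 it was 9.59%, with 6.02% higher and 3.57% lower. Of the 15 minor circRNAs, 1 was called at day 4 against day 0, the same 1 at day 8 against day 0, and 0 at day 8 against day 4. At an unadjusted p under 0.05 there were 3, 4 and 2 of the 15, against 845, 982 and 846 of the 3869. The median log2 change of the minor circRNAs was 0.48, 0.19 and 0 in these 3 comparisons, against 0, 0.05 and 0.06 for all circRNAs. With low read numbers and the selection by detection these medians stand as descriptions.

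The called circRNA was the Lrch3 circRNA of exons 4 to 6 (chr16:32955386-32961830), which ends at the donor of the dominant circRNA and begins at a later exon. It had 92.8 and 194 CPM at day 0, from 4 and 8 inferred reads, and was listed at 0 in the 4 later libraries. It entered the table through day 0 alone, the day on which it was high, so a fall from day 0 was built in by the selection. The calls, lower at day 4 (limma adjusted p = 0.0142) and at day 8 (limma adjusted p = 0.00954) against day 0, are conditioned on that selection and do not support a fall. No fold is given, since the later days were listed at 0. The call was lost without either day 4 library or either day 8 library, where its adjusted p lay between 0.0579 and 0.135.

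The other minor Lrch3 circRNAs did not pass the test. The circRNA of exons 2 to 5, mmu_circ_0006201 (chr16:32950378-32959617), had 232 and 0 CPM at day 0, 372 and 149 CPM at day 4, then 220 and 355 CPM at day 8. Its day 0 libraries differed from each other as much as the days did, with adjusted p from 0.368 to 0.958 over the 3 comparisons. Its neighbour of exons 2 to 4, mmu_circ_0000680 (chr16:32950378-32955491), had 0 and 48.4 CPM at day 0, 241 and 0 CPM at day 4, then 196 and 213 CPM at day 8. Both day 8 libraries lay above both day 0 libraries, but it was listed through day 8 alone, so this order follows in part from the selection. Exons 3 to 6 gave mmu_circ_0006203 (chr16:32952143-32961830), which reached at most 166 CPM, from 7 reads. Like mmu_circ_0006201, it was listed through days 4 and 8 alone.

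The leading minor Pvt1 circRNAs were highest at day 4. The circRNA of exons 2 to 3 of Pvt1-208 (chr15:61938703-62007103) had 232 and 315 CPM at day 0, 590 and 569 CPM at day 4, then 245 and 450 CPM at day 8. Both day 4 libraries lay above the other 4, on 27 and 23 reads against 10 to 19. The log2 change from day 0 to day 4 was 1.04 (SE 0.38) and missed the call (limma adjusted p = 0.188). The change from day 4 to day 8 was -0.69 (limma adjusted p = 0.401).

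The second used exon 3 of another annotated transcript, Pvt1-201 (chr15:61938703-61980907). It had 232 and 291 CPM at day 0, 547 and 421 CPM at day 4, then 171 and 237 CPM at day 8, again with both day 4 libraries above the rest. Its log2 change was 0.84 (SE 0.37, limma adjusted p = 0.265) from day 0 to day 4, and -1.06 (SE 0.37, limma adjusted p = 0.169) from day 4 to day 8. The third, mmu_circ_0005721 (chr15:61933900-61939020), shares the dominant donor but begins 4803 bp upstream of the dominant acceptor. Its span matched no exon pair within an annotated Pvt1 transcript, and its start alone was not compared with exons. This circRNA had 186 and 96.9 CPM at day 0, 241 and 124 CPM at day 4, then 49.0 and 166 CPM at day 8, and its days overlapped.

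The Pvt1 minor circRNAs were also summed by the ends they share. The 3 that use the dominant acceptor summed to 464 and 654 CPM at day 0, 1312 and 1040 CPM at day 4, then 490 and 687 CPM at day 8. The 4 that share neither end summed to 394 and 315 CPM at day 0, 175 and 248 CPM at day 4, then 122 and 142 CPM at day 8, from 17 down to 5 reads in a library. Both day 4 libraries were highest in the first group, and both day 0 libraries in the second. Of the first group, mmu_circ_0005722 was listed through day 4 alone, so the day 4 height of that sum is in part built in. Of the second group, 2 were listed through day 0 alone and 1 through day 8 alone. This grouping was made after the values were seen and has no test. In the second group, the circRNA of exons 3 to 4 (chr15:62007022-62007481) had 232 and 121 CPM at day 0 and 87.5 and 0 CPM at day 4. Day 8 was listed at 0. This circRNA entered the table through day 0 alone, which fixes part of that fall, and it was not called. The circRNA mmu_circ_0005724 (chr15:62073729-62074116), of exons 5 to 6, was listed at 0 at day 0 and had 122 and 47.4 CPM at day 8. It entered through day 8 alone, so this order too follows in part from the selection. These 2 were singled out after their values were seen.

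The minor Rasa2 circRNAs other than mmu_circ_0001830 were far lower. The circRNA of exons 2 to 6, mmu_circ_0001828 (chr9:96483162-96511918), had 302 and 242 CPM at day 0, 481 and 297 CPM at day 4, then 269 and 521 CPM at day 8. The days overlapped, with adjusted p from 0.533 to 1. Further downstream, the circRNA of exons 14 to 17, mmu_circ_0016014 (chr9:96457819-96468906), shares no end with the others. It had 69.6 and 96.9 CPM at day 0 and 122 and 94.8 CPM at day 8, while day 4 was listed at 0. This circRNA entered the table through days 0 and 8 alone, so the low day 4 follows in part from the selection. On 3 to 5 reads per library the gaps to day 4 missed the call, with a limma adjusted p of 0.156 at day 4 against day 0 and 0.1003 at day 8 against day 4. Tested by its own level, mmu_circ_0001830 changed by -0.27 on the log2 scale at day 4 (SE 0.18, limma adjusted p = 0.463) and by -0.13 at day 8 (limma adjusted p = 0.707).

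**Figure D4:**
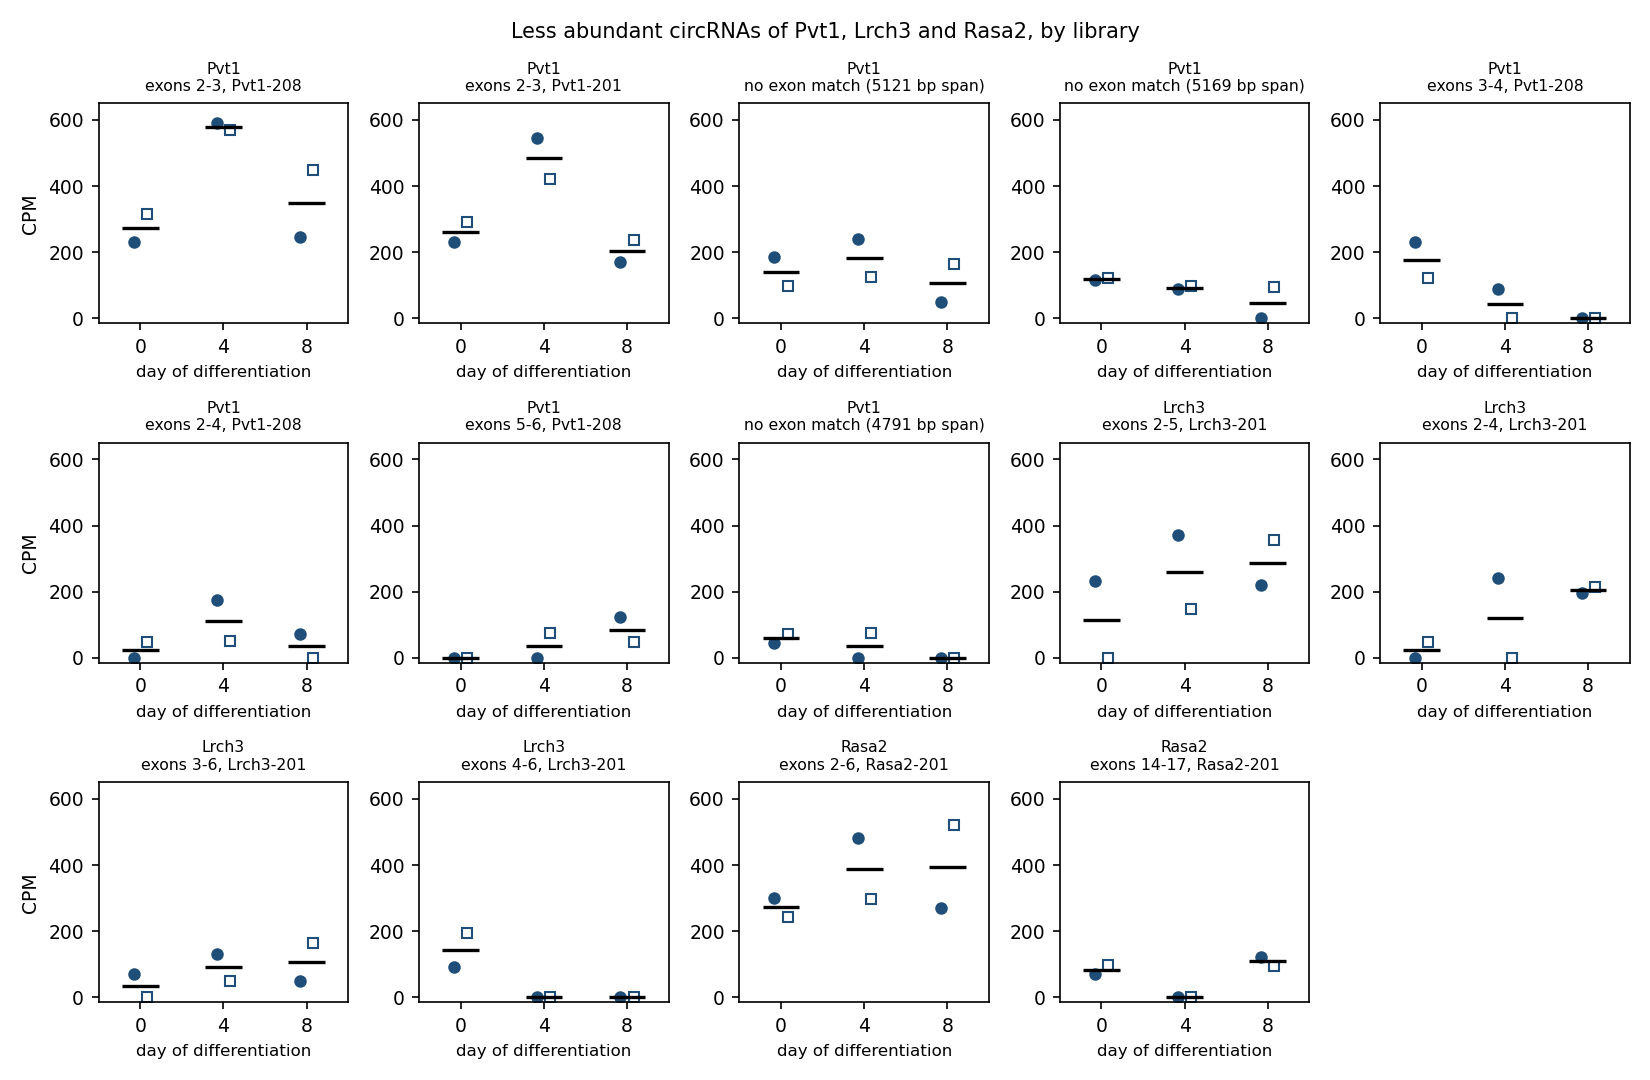
CPM by day of differentiation for 14 minor circRNAs, 1 panel each, named by host and matched exons or by span where no exon pair matched; filled circles are replicate 1, open squares replicate 2, and bars the day mean. The first 2 Pvt1 panels peak at day 4, at means of 580 and 484 CPM, and the panel for Lrch3 exons 4 to 6 is at 0 after day 0.

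A test of each minor circRNA relative to the dominant one of its locus, over the 1360 minor circRNAs of the table, called 0% in each of the 3 comparisons by limma. The 15 minor circRNAs of the 4 hosts gave 0 calls likewise. At an unadjusted p under 0.05 there were 3, 3 and 1 of them, against 203, 190 and 144 in the table. The lowest adjusted p among the 15 was 0.142, for Lrch3 exons 4 to 6 at day 8 against day 0. With pseudocounts of 1 or 0.1 CPM, 2, 1 and 1 of the 15 were called, all with a day listed at 0. The table then had 103, 100 and 94 calls among the 1360 with 1 CPM, and 138, 135 and 121 with 0.1 CPM. Of the 15 minor circRNAs, 11 had a mean under 10 reads. With 155 to 228 reads in a library, mmu_circ_0001830 was not called either. Its SE at day 4 against day 0 was 0.75 in this fit and 0.18 by its own level. This fit called no circRNA of the table, so the lack of a call does not bear on read numbers.

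Without a model, the minor circRNAs whose libraries did not overlap between days were counted on the deposited CPM. At day 4 against day 0, 3 of 15 were higher and 5 were lower in both libraries, against 21.7% and 24.5% of the table. At day 8 against day 0, 2 were higher and 5 lower, against 26.2% and 25%. At day 8 against day 4, 1 was higher and 2 lower, against 24.6% and 22%. Of the 4 dominant circRNAs, both day 4 libraries were above day 0 for Hipk3 and Rasa2, and both day 8 libraries were below day 4 for Hipk3, Pvt1 and Rasa2. For Rasa2 the latter gap closed with median-of-ratios scaling, where day 4 ran from 5641 to 6545 CPM and day 8 from 5602 to 5843 CPM. Days 8 and 0 of Rasa2 overlapped in the deposited CPM. With TMM scaling day 8, at 5584 to 5800 CPM, lay above day 0, at 4762 to 5377 CPM. Median-of-ratios scaling also put Rasa2 day 8 above day 0, at 5006 to 5251 CPM, and alone put Lrch3 day 8 above day 4.

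The circRNAs most like each dominant one were taken as the 2 with the smallest root-mean-square difference of log2(CPM + 43.7) over the 6 libraries. This measure reads level and course together. The nearest to Hipk3 were mmu_circ_0001624 (chr7:128191352-128200913) at 0.39 and mmu_circ_0011707 (chr4:58188803-58192579) at 0.45. The same 2 were nearest to Pvt1, at 0.36 and 0.47. Their day means were 11031, 10060 and 10397 CPM for mmu_circ_0001624, and 7740, 13770 and 10437 CPM for mmu_circ_0011707. The nearest to Lrch3 were mmu_circ_0000495 (chr13:104674223-104679365) at 0.30 and mmu_circ_0012878 (chr5:96557962-96563151) at 0.38. Rasa2 had the closest pair, mmu_circ_0011724 (chr4:59527146-59537348) at 0.21 and chr3:78770324-78770697 at 0.27. All of them were among the 12 most abundant circRNAs of the table.

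Together the 19 members took 4.15% to 5.28% of the CPM of a library, and the 4 dominant ones 3.53% to 4.51%. A circBase identifier, from a public catalogue of circRNAs, was given for 13 of the 19, against 63.1% of the table. Of the 15 minor circRNAs, 5 were above 0 in all 6 libraries, against 32.3% of the table. All 4 dominant circRNAs were above 0 in all 6 too, which follows from the way they were picked. In the Pvt1 window 5 of the minor circRNAs had no identifier.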

How the data were processed

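Back-splice reads of 6 libraries (2 each at days 0, 4 and 8) were used from 1 deposited table of CPM values, made by the authors with the same sum in each library over the listed circRNAs. Per the submitters' processing notes, FastQC 0.11.9, HISAT2 2.2.0 and the build mm9 were used. For the circRNA caller, the name was not given in the sources used here. Starts in the table count from 0 and were raised by 1. Depth is known only as the inferred back-splice reads, so precision is limited by reads per circRNA.

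TMM factors were computed directly as trimmed means of log ratios. A joint limma 3.58.1 model (R 4.3.3) covered the 3 days (day as the only term, mean-variance trend, pseudocount 43.7 CPM, the smallest non-zero value), with Benjamini-Hochberg adjustment over all circRNAs. The procedure was tested on simulated data for the fit of a circRNA's own level at day 8 against day 0. Changes were simulated only in circRNAs with more reads than most minor ones here. The fit relative to the dominant circRNA was not simulated. The simulation therefore does not show how the fits behave for circRNAs with few reads. Replicates differed beyond counting noise: the chi-square per degree of freedom was 1.59, 2.00 and 1.38 at days 0, 4 and 8. Loci were circRNAs overlapping on 1 strand, with each window taken as a locus of its own. Named in full were the dominant circRNAs, called minor ones, and the 3 next most abundant minor ones of each window. Other pseudocounts, scalings, filters, libraries and a replicate term were tried. Members, lists and tests were chosen with earlier results of these data known.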

Additional observations from a re-analysis of the deposited data

How the results depend on the processing

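The count of minor circRNAs called by limma (1 at day 4 and 1 at day 8, both against day 0) fell to 0 in both comparisons when 10 reads or more in 2 libraries were required, by construction since the called one did not pass it (5 of the 15 did), and with only the 2 days compared, where its adjusted p was 0.127 and 0.0652. Leaving out 1 library gave 0 to 1 calls at day 4 and 0 to 2 at day 8. The 2 came without day 4 replicate 1 and were Pvt1 exons 3 to 4 (adjusted p = 0.0384, and up to 0.367 over its alternatives) and chr15:62002313-62007103 (adjusted p = 0.0498), both listed through day 0 alone; the latter alone was called without day 4 replicate 2 (adjusted p = 0.0326, and up to 0.489 over its alternatives), and neither day 8 library could be left out without losing the call. The limma adjusted p of Lrch3 exons 4 to 6 was also followed over the alternatives that left out no single library. At day 4 against day 0 it ran from 9.9e-05 to 0.127, and at day 8 against day 0 from 6.7e-05 to 0.0652. Both lowest values came with a pseudocount of 0.1 CPM. Relative to the dominant circRNA, calls rose from 0 to 2, 1 and 1 in the 3 comparisons with a pseudocount of 1 CPM, and to 2, 1 and 1 with 0.1 CPM, while calls in the table rose from 0 to 103, 100 and 94 and to 138, 135 and 121 of 1360. They were Lrch3 exons 4 to 6 and Rasa2 exons 14 to 17, both with groups listed at 0. The count-model alternative was not run, because the inferred reads start at 2.

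With only circRNAs that met the 10-read filter, the dominant share was 96.1%, 93.2% and 94.8% for Pvt1 at days 0, 4 and 8, and 98.4% and 96.9% for Lrch3 at days 0 and 8. With only those above 0 in all libraries it was 95.2% for Pvt1 at day 0, and 100% for Lrch3 on each day, by construction. TMM scaling moved the day means to 12361 CPM (Hipk3, day 0), 6982 CPM (Lrch3, day 0) and 5692 CPM (Rasa2, day 8). Median-of-ratios scaling gave 12521 and 7071 CPM at day 0 for Hipk3 and Lrch3, and 9413 and 5722 CPM at day 8 for Lrch3 and Rasa2. None of the signs that turned belonged to a called change. The log2 change of mmu_circ_0001828 from day 4 to day 8, 0.02, was -0.00795 without scaling. Leaving out 1 library moved it from -0.41 to 0.49, mmu_circ_0001830 from -0.053 to 0.33, mmu_circ_0006201 from -0.37 to 0.83, mmu_circ_0006203 from -0.45 to 0.77, mmu_circ_0000680 from -0.21 to 2.55 and mmu_circ_0005721 from -1.22 to 0.00013 in that comparison. From day 0 to day 4, mmu_circ_0000680 moved from -0.54 to 2.21 and mmu_circ_0005721 from -0.087 to 0.75. From day 0 to day 8, mmu_circ_0005721 moved from -0.89 to 0.33 and chr15:61938703-62007103 from -0.043 to 0.77.

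Replicate deviations showed no correlation between days over all circRNAs (-0.01). Many of these circRNAs rest on few reads, so a pairing of the libraries by replicate number could be missed. A replicate block left 1, 1 and 0 minor circRNAs called, and 307, 453 and 352 in the table against 318, 479 and 371. With only the 2 days compared, the table gave 0 limma calls at day 4 against day 0 (875 at an unadjusted p under 0.05), 541 at day 8 against day 0 and 0 at day 8 against day 4 (884 at an unadjusted p under 0.05).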
